A study of Caenorhabditis elegans with 54 samples.

Results

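The loss of mut-16 was measured by small RNA sequencing in a Caenorhabditis elegans strain that lacks both sosi-1 and eri-6[e-f]. Both sides of the comparison carry the deletion cmp263, which takes out sosi-1 and eri-6[e-f] together on chromosome I. The double deletion carries cmp263 alone, and the triple mutant carries it with the allele pk710 of mut-16, the labelled difference. The 3 small RNA libraries of each were picked by their titles, and they are 6 of the 54 libraries of the series and 6 of its 30 small RNA libraries. The fit also used the deletion of eri-6[e-f] alone (cmp261) and that of sosi-1 alone (cmp262), each with and without mut-16(pk710), with 3 small RNA libraries per strain and 18 in all. Neither wild type nor a strain with mut-16(pk710) alone was analysed here, so every effect of mut-16(pk710) below was measured on a deletion. Each deletion is represented by 1 allele, each library pools 8000 whole day 1 adults grown at 20 °C to about 64 h, and the labels do not say that the 3 libraries of a strain came from separate cultures. The p-values therefore measure only the spread between these libraries, which may be technical.

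MUT-16 is the scaffold protein of mutator foci, bodies at the edge of germ granules where RNA-dependent RNA polymerases copy target mRNAs into 22G-RNAs. 22G-RNAs are short antisense RNAs bound by the worm-specific Argonautes of the WAGO family, which silence genes, and by CSR-1, which protects germline mRNAs. A smaller class, the 26G-RNAs, starts 22G-RNA production on some targets. In oocytes and embryos 26G-RNAs are bound by ERGO-1 and need the ERI complex and the helicase ERI-6/7, and in sperm they are bound by ALG-3 and ALG-4. The reads were assigned to genes, so 22G-RNAs and 26G-RNAs are not told apart, and no source used here gives the strand counted.

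Total small RNA counts per library were 17488129 to 20802130 in the double deletion and 20610439 to 34210727 in the triple mutant, and the 6 mRNA libraries of the same strains held 21021929 to 93976553 counts. Log2 levels correlated at 0.9901 to 0.9934 between libraries of the same strain and at 0.749 to 0.7647 between the strains, across features, which are not independent replicates. Levels are given as TMM-normalised CPM (counts scaled to a common library total) for each of the 3 libraries, and changes as log2 fold changes, triple mutant over double deletion, ± standard error (SE). A feature is said to have risen or fallen where edgeR's quasi-likelihood test gave a Benjamini-Hochberg adjusted p below 0.05 over all 14941 features tested and the change was at least 2-fold.

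The targeted genes were examined first. Small RNAs assigned to mut-16 itself stood at 238, 246 and 242 CPM in the double deletion and at 98.0, 95.2 and 96.0 CPM in the triple mutant, a log2 fold change of -1.33 ± 0.05. The mRNA of mut-16 was 25.2, 26.1 and 18.4 CPM in the double deletion and 46.1, 41.9 and 44.5 CPM in the triple mutant, a difference of 0.92 ± 0.22 just under 2-fold (edgeR adjusted p = 9.3e-04), and of 1.05 with DESeq2 size factors. The mRNA groups did not overlap, and the labels do not say which bases pk710 changes, so these levels do not check the allele. Small RNAs of sosi-1 were at 0.813, 1.4 and 0.425 CPM and 0.25, 0.225 and 1.44 CPM, overlapping and near the limit of detection, against 770, 787 and 795 CPM in the eri-6[e-f] deletion, which keeps the gene. The mRNA of sosi-1 was listed at 0 in all 6 mRNA libraries of the double deletion and the triple mutant.

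The files list the eri-6 and eri-7 region as 2 entries, eri.67 and eri6.1, and no source used here gives their extent. Small RNAs of eri.67 were 81.3, 73.4 and 76.9 CPM in the double deletion and 64.5, 63.5 and 60.4 CPM in the triple mutant, lower in all 3 triple libraries but by less than 2-fold (-0.30 ± 0.06, edgeR adjusted p = 7.7e-05). Scaled to microRNA counts, the change of eri.67 was -1.77 and passed the call. It did not pass when mir-8203, which held most microRNA counts, was left out of the scaling. In the single deletions eri.67 lost most of its small RNAs with mut-16(pk710). In eri-6[e-f] it went from 122.8, 123.4 and 124 CPM to 8.28, 9.2 and 6.82 CPM, and in sosi-1 from 280, 277 and 267 CPM to 35.9, 31.5 and 34.5 CPM. The test of the difference put the effect in the double deletion 3.16 ± 0.08 above the mean of the single deletions (edgeR adjusted p = 6.7e-18), and 3.60 and 2.71 above each of them. The mRNA of eri.67 stood at 45.8, 42.1 and 36.7 CPM in the double deletion and 64.8, 61.9 and 59.97 CPM in the triple mutant, not called (0.58 ± 0.19). The entry eri6.1 fell from 93.6, 69.3 and 72.3 CPM to 21.02, 35.1 and 22.96 CPM (-1.59 ± 0.33), with an adjusted p of 0.2 in edgeR when all 24 libraries entered the fit. In sosi-1 it held 3989, 4064 and 3885 CPM and dropped to 83.8, 117 and 80.3 CPM with mut-16(pk710), and the effect in the double deletion was 3.82 ± 0.45 weaker (edgeR adjusted p = 2.7e-06). In eri-6[e-f] its small RNAs went from 86.0, 62.9 and 46.5 CPM to 123.3, 29.2 and 113 CPM, with overlapping libraries, and the effect in the double deletion minus that in eri-6[e-f] was -1.97 ± 0.46 (edgeR adjusted p = 0.0041). Neither difference for eri6.1 passed with all 24 libraries in the fit (edgeR adjusted p = 0.11 against sosi-1 and 0.46 against eri-6[e-f]).

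Across all features, loss of mut-16 in the double deletion lowered the small RNAs of many genes and raised those of fewer. Of 14941 features tested, 5877 fell (39.3%) and 2013 rose (13.5%), 52.8% in either direction, and the median log2 fold change over all features was -0.198. For 13043 of the 14941 the libraries of the 2 strains did not overlap, so separate groups were common in this comparison. Losses were often large: 4446 features fell at least 4-fold, 2117 at least 16-fold and 849 at least 64-fold. Among the gains, 1213 features rose at least 4-fold, 405 at least 16-fold and 31 at least 64-fold. The scale matters for these counts: set to microRNA counts, 9706 features fell and 1024 rose, 9.54% of calls in place of 25.5%, and the median of all features moved to -1.658. MicroRNAs hold few of these counts, 9701 to 81963 per library and 945 to 2386 without mir-8203.

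The share of losses was highest at the top of the small RNA range and between 1 and 10 CPM. Features were sorted by their mean level in the 2 single deletions, which are not part of this contrast. Of the 124 features with at least 1000 CPM there, 73.4% fell and 0.806% rose, with a median log2 fold change of -6.08. Between 100 and 1000 CPM 28.3% of 2414 features fell and 3.31% rose, and between 10 and 100 CPM 31.4% of 4726 fell and 5.56% rose. Between 1 and 10 CPM 56.3% of 4522 fell and 16.6% rose. Below 1 CPM 34% of 3155 fell and 29.1% rose. A feature this low could enter the test through the strains with mut-16(pk710) where it was high, so nothing is read from the rises in that range.

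**Figure D1:**
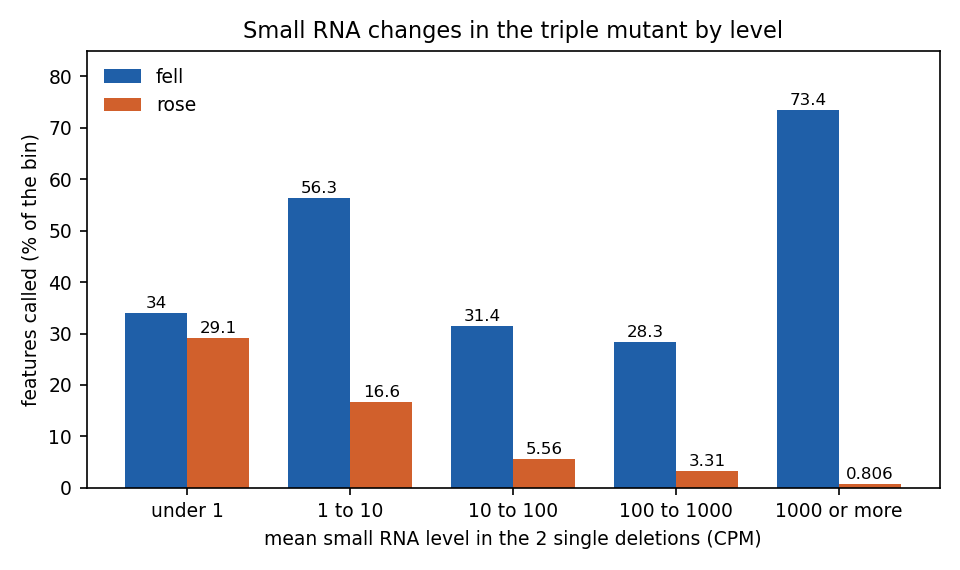
Percent of features whose small RNAs fell (blue) or rose (orange) in the triple mutant against the double deletion (3 libraries each), by mean small RNA level in the 2 single deletions (CPM). The range of 1000 CPM or more has 73.4% falls and 0.806% rises, and the range under 1 CPM has 34% falls and 29.1% rises.

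Features are next described that had the most small RNAs in the double deletion, a choice that by itself favours a lower level in the triple mutant, so that no share or count is read from them. The protein-coding gene W09C5.12 stood at 5919, 6027 and 5951 CPM in the double deletion and 33.9, 29.7 and 24.5 CPM in the triple mutant (-7.66 ± 0.20). The pseudogene Y39E4B.14 went from 5980, 5992 and 5907 CPM to 108, 102 and 97.1 CPM (-5.86 ± 0.07), and cars-2, typed as a pseudogene in the reference, from 5338, 5411 and 5395 CPM to 105, 94.1 and 90.7 CPM (-5.80 ± 0.08). In each of the 3 the libraries of a strain lay close together and the groups were far apart. Others were not called: klp-7, a kinesin-13 of the mitotic spindle, had 3078, 3124 and 3062 CPM and 3625, 3522 and 3427 CPM (0.19 ± 0.08). The splicing helicase gene snrp-200 had 2942, 3028 and 2996 CPM and 4159, 4023 and 4018 CPM (0.44 ± 0.07), also not called, and both of these differences change sign when counts are scaled to microRNAs.

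Several features were left with almost no small RNAs. The pseudogene hpo-42 had 21.03, 20.3 and 23.6 CPM in the double deletion and no count in any triple mutant library, at least 587-fold lower against a floor of 3 counts over the group. The collagen gene col-162 had 16.1, 18.6 and 17 CPM and likewise no count, at least 468-fold lower. F46C3.7 went from 105, 116 and 115 CPM to 3 counts over the 3 triple libraries, a ratio of 3044 (95% interval 1041 to 14767, counting error only). The nuclear receptor gene nhr-249 fell from 293, 290 and 290 CPM to 1.0, 0.631 and 0.339 CPM (-8.67 ± 0.15), and Y105E8A.1 from 465, 481 and 461 CPM to 1.56, 1.31 and 0.635 CPM (-8.58 ± 0.15). All 5 also fell in the single deletions, where their means with mut-16(pk710) ranged from 0 CPM for hpo-42 to 1.13 CPM for Y105E8A.1.

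By feature type, protein-coding genes took 87.87% ± 0.0934 (SD, n = 3) of counts in the double deletion and 96.61% ± 0.105 in the triple mutant. Pseudogenes dropped from 10.84% ± 0.0261 to 1.598% ± 0.00812. Of 945 pseudogenes tested 621 fell and 98 rose, where 39.3% of all features fell and 13.5% rose. Long noncoding RNAs went from 0.2482% ± 0.00362 to 0.01285% ± 0.00074. Noncoding RNAs of other kinds went up from 0.7456% ± 0.0644 to 1.348% ± 0.0706, microRNAs from 0.07016% ± 0.00733 to 0.2221% ± 0.0261 and ribosomal RNAs from 0.01418% ± 0.000871 to 0.03004% ± 0.00684. The microRNA share rests mostly on the single entry mir-8203. Of 12 microRNA entries tested 3 rose, 1 fell and 8 were not called. For each of these 6 feature types the groups did not overlap, and the exact two-sided permutation p was 0.1, the smallest that 3 against 3 can give. The piRNA entries stood at 0.00764% and 0.007527% with overlapping libraries (exact permutation p = 1).

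Targets of ERGO-1 are often recently duplicated genes or pseudogenes, and they receive 22G-RNAs after an ERGO-1-bound 26G-RNA. The targets recalled here, with earlier results of these data known, lost most of their small RNAs. All 24 listed targets were tested, of which 1 is listed under the microRNA name mir-8199. Where 39.3% of all features fell and 13.5% rose, 22 of the 24 fell and none rose, with a median log2 fold change of -3.95. Their summed level went from 6383 to 6890 CPM in the double deletion to 380.6 to 396.1 CPM in the triple mutant. Y37E11B.2 fell from 842, 895 and 915 CPM to 17.6, 17.9 and 13.5 CPM (-5.75 ± 0.13), C44B11.6 from 696, 714 and 726 CPM to 8.62, 9.51 and 7.96 CPM (-6.36 ± 0.13) and K02E2.6 from 745, 756 and 759 CPM to 29.4, 26.4 and 25 CPM (-4.80 ± 0.11). The libraries of the 2 strains were far apart for each of these 3. E01G4.5 went from 356, 460 and 461 CPM to 25.4, 25.9 and 24.1 CPM (-4.08 ± 0.12) and E01G4.7 from 489, 540 and 541 CPM to 67.8, 65.7 and 62.1 CPM (-3.004 ± 0.08).

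Against the single deletions, the effect was weaker for a number of ERGO-1 targets. All 24 fell with mut-16(pk710) in each single deletion, with medians of -5.29 where eri-6[e-f] was deleted and -4.57 where sosi-1 was. For 11 of 24 the effect in the double deletion was called higher than the mean of the single deletions, against 8.25% of all features, and none was called lower, against 0.455%. Scaled to microRNA counts without mir-8203, 2 of 24 were higher, where 116 of all 14941 features were. F52D2.6 was 1 of the 2 targets that did not fall. It stood at 19.8, 23.4 and 22.5 CPM in the double deletion and at 19.7, 18.2 and 21.99 CPM in the triple mutant, with overlapping libraries (-0.13 ± 0.11, edgeR adjusted p = 0.26). Under the microRNA scaling F52D2.6 was at -1.61, a called fall, but it was not called without mir-8203. With mut-16 its level in eri-6[e-f] went from 33.8, 33.6 and 29.1 CPM to 5.18, 3.59 and 4.18 CPM, and its level in sosi-1 from 15.9, 17.7 and 18.3 CPM to 6.79, 4.75 and 5.29 CPM, a difference of 2.15 ± 0.15 (edgeR adjusted p = 4.2e-10). For E01G4.5 the difference was 1.68 ± 0.14 and for E01G4.7 1.81 ± 0.10. Both calls were lost under the microRNA scaling without mir-8203 (edgeR adjusted p = 0.16 for E01G4.5 and 0.081 for E01G4.7). Both held more small RNAs in the triple mutant than the 15.1, 13.2 and 13.7 CPM and 20.5, 16.2 and 21.1 CPM of eri-6[e-f] with mut-16(pk710). The other target that did not fall, Y7A5A.11, stood near 0.3 CPM in both strains (0.305, 0.280 and 0.364 CPM and 0.306, 0.315 and 0.212 CPM), with few counts. The mRNA of 20 targets was tested as well, of which 5 rose and 3 fell, where 25.5% of the 14513 mRNAs tested rose and 26.3% fell, 51.8% in either direction. F55C9.3 and F55C9.5 were 2 of the 5, with log2 fold changes of mRNA of 3.22 and 2.81, and F39F10.4 was 1 of the 3 that fell (-1.80). The summed mRNA of the targets overlapped between the strains, at 73.36 to 85.03 CPM in the double deletion and 81.89 to 85.03 CPM in the triple mutant.

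Where 39.3% of all features fell, all 11 recalled targets of WAGO Argonautes and of HRDE-1, the nuclear WAGO of the germline, fell. Their median was -4.13. Their summed small RNAs went from 10720 to 10760 CPM down to 1111 to 1175 CPM. The list was drawn up with earlier results of these data known, so its count of falls is a description only. bath-45, a BTB and MATH domain gene, fell from 3979, 3860 and 3898 CPM to 64.1, 55.9 and 47.6 CPM (-6.12 ± 0.09), and F15D4.5 from 3195, 3154 and 3204 CPM to 362, 351 and 360 CPM (-3.15 ± 0.06). Y17D7B.4 fell from 520, 559 and 533 CPM to 3.78, 3.52 and 3.39 CPM (-7.22 ± 0.19). C38D9.2 kept more, at 715, 740 and 737 CPM and 266, 248 and 257 CPM (-1.51 ± 0.05), and so did ZC15.3, at 506, 540 and 526 CPM and 197, 186 and 185 CPM (-1.47 ± 0.05). W09B7.1 and F07B7.1 had the same level in every strain to the digits kept, as did W09B7.2 and F07B7.2, so each pair may be 1 measurement. Their sequences were not compared, and the counts over the 11 targets include both names of each pair. W09B7.2 lay at the 2-fold limit (-1.02 ± 0.06, and -0.98 without the third triple mutant library).

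Of all mRNAs tested 25.5% rose and 26.3% fell. The mRNA of the same 11 genes, listed with earlier results known, rose for 10 of them, and Y17D7B.4 mRNA fell (-1.50 ± 0.28). Their summed mRNA was 67.93 to 77.72 CPM in the double deletion and 930.7 to 1040 CPM in the triple mutant. C38D9.2 mRNA was 0.659, 0.643 and 0.719 CPM and 201, 199 and 179 CPM (8.17 ± 0.35), and ZC15.3 mRNA was 0.359, 0.476 and 0.0599 CPM and 101, 98.2 and 87.8 CPM (8.09 ± 0.33). F15D4.5 mRNA was 3.77, 3.74 and 5.39 CPM and 329, 321 and 286 CPM (6.2 ± 0.31). In these 3 genes the mRNA groups were far apart, a separation that was not counted over all mRNAs. C38D9.2 and ZC15.3 had the largest mRNA rises of the list and, apart from the pair W09B7.2 and F07B7.2, the smallest small RNA falls. None of the 11 was called different from the single deletions in its small RNA effect, against their mean, though 1 was lower with DESeq2 size factors, DESeq2 or the microRNA scaling, and 2 were lower against sosi-1 alone.

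For the genes of the small RNA machinery itself, the number of calls depended on the scaling. Of 19 genes of the mutator complex and 22G-RNA synthesis, 3 fell and none rose, where 39.3% of all features fell and 13.5% rose. When counts were scaled to microRNAs 13 fell, where 9706 of all 14941 features fell. Without mir-8203 4 fell, where 6787 of 14941 did. rde-11, a partner of RDE-10 in RNA interference, fell from 543, 541 and 536 CPM to 138, 144 and 133 CPM (-1.96 ± 0.06). smut-1, a helicase gene related to mut-14, fell from 84.1, 86.4 and 82.2 CPM to 39.6, 39.2 and 37.5 CPM (-1.12 ± 0.06), and mut-16 itself was the other. The polymerase genes rrf-1, at 415, 426 and 437 CPM and 420, 408 and 402.0 CPM, and ego-1, at 644, 650 and 650 CPM and 863, 818 and 816 CPM, were not called. The median of the list was 0.326, which turned to -1.14 under the microRNA scaling and to -0.251 without mir-8203, so no direction is given for it.

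Of 13 genes of the ERI complex and 26G-RNA synthesis, alg-3 and alg-4 rose and none fell, where 13.5% of all features rose and 39.3% fell. Under the microRNA scaling 2 rose and 6 fell, where 1024 of all 14941 features rose and 9706 fell. Without mir-8203 2 rose and 1 fell, where 1301 of 14941 rose and 6787 fell. Small RNAs of alg-3 went from 1.17, 0.728 and 0.850 CPM to 10.9, 9.42 and 10.5 CPM (3.47 ± 0.17) and those of alg-4 from 1.07, 0.895 and 0.850 CPM to 9.51, 8.11 and 11.4 CPM (3.35 ± 0.22). Both encode the Argonautes of sperm 26G-RNAs, both effects were larger than the mean of the single deletions (1.71 for alg-3 and 1.21 for alg-4, the latter 0.95 and under 2-fold without the first eri-6[e-f] library), and the mRNA of both rose (2.73 and 2.43). Scaled to microRNA counts without mir-8203, the differences of effect were not called, at 1.30 for alg-3 and 0.77 for alg-4 (edgeR adjusted p = 0.31 for alg-3 and 0.62 for alg-4), and that of alg-4 was 0.86 and under 2-fold with mir-8203 kept. rrf-3, the polymerase of 26G-RNAs, was not called at 386, 380 and 378 CPM and 602, 577 and 558 CPM, and neither was ergo-1 at 101, 102 and 103 CPM and 106, 105 and 107 CPM. dcr-1, which encodes Dicer, had 255.6, 248.8 and 241 CPM and 457, 439 and 427 CPM and was under 2-fold (0.83 ± 0.06), but 1.019 and called with library size alone. The mRNA of rrf-3, ergo-1 and dcr-1 rose (2.17, 2.13 and 2.81), 7 of the 13 genes in all, where 25.5% of all mRNAs tested rose.

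Among 25 Argonaute genes 4 rose and 3 fell, where 13.5% of all features rose and 39.3% fell. Under the microRNA scaling 3 rose and 15 fell, where 1024 of all 14941 features rose and 9706 fell. Without mir-8203 3 rose and 5 fell, where 1301 of 14941 rose and 6787 fell. Besides alg-3 and alg-4, wago-10 rose from 0.457, 0.560 and 0.729 CPM to 4.37, 3.96 and 4.36 CPM (2.87 ± 0.27), and wago-1, which binds 22G-RNAs in germ granules, from 309, 304 and 320 CPM to 708, 685 and 656 CPM (1.14 ± 0.06). sago-1, a somatic secondary Argonaute, fell from 4.22, 4.14 and 5.89 CPM to 0.890, 0.991 and 1.10 CPM (-2.26 ± 0.21), the pseudogene wago-2 from 726, 710 and 736 CPM to 183, 181 and 180 CPM (-1.995 ± 0.05) and alg-1, which binds microRNAs, from 17.9, 19.1 and 18.5 CPM to 6.48, 6.31 and 6.18 CPM (-1.54 ± 0.09). The genes of the main germline Argonautes carried many small RNAs and were not called. csr-1 stood at 1213, 1229 and 1252 CPM and 1101, 1100 and 1066 CPM, prg-1, the piRNA Argonaute, at 1410, 1460 and 1457 CPM and 1682, 1630 and 1634 CPM, and hrde-1 at 1271, 1263 and 1287 CPM and 1777, 1738 and 1646 CPM. The mRNA of 16 of 24 Argonaute genes tested rose and none fell, where 25.5% of all mRNAs tested rose and 26.3% fell. Of the small RNA differences, those of wago-1 (1.14), prg-1 (0.19) and hrde-1 (0.43) change sign under the microRNA scaling. That of wago-1 was 0.562 and not called without mir-8203. Of 15 nuclear RNAi genes hpl-1, an HP1-type chromatin protein, fell from 48.8, 46.5 and 52.04 CPM to 5.2, 5.68 and 6.02 CPM (-3.13 ± 0.09) and none rose. This list had 9 falls under the microRNA scaling and 2 without mir-8203, beside 9706 and 6787 of all 14941 features. Of 21 germ granule genes 8 fell under the microRNA scaling and 2 without mir-8203, to be read beside the same counts of all features. At the main scaling meg-4 fell from 98.2, 95.8 and 95.8 CPM to 30.8, 26.7 and 24.7 CPM (-1.81 ± 0.07). The gene of the RNA helicase cgh-1 rose from 346, 330 and 338 CPM to 827, 807 and 801 CPM (1.26 ± 0.07). The difference of cgh-1 turns negative under the microRNA scaling, and was 0.684 and not called without mir-8203.

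Several large gene families lost small RNAs in most of their tested members, where 39.3% of all features fell and 13.5% rose. Of 162 F-box A genes tested of 221, 125 fell and 9 rose, and of 95 F-box B genes tested of 113, 86 fell and none rose, with medians of -3.22 and -3.71. F-box proteins are adaptors that bring substrates to ubiquitin ligases. fbxa-193 fell from 1569, 1569 and 1552 CPM to 21.7, 20.01 and 17.8 CPM (-6.29 ± 0.08) and fbxb-14 from 1900, 1972 and 1937 CPM to 37.1, 36.9 and 31.9 CPM (-5.78 ± 0.07), and fbxb-14 mRNA rose (4.598). Of 42 F-box C genes tested of 56, 27 fell and 1 rose. Of 75 genes with BATH or MATH domains tested of 92, 53 fell and 2 rose, among them bath-20, from 3837, 3854 and 3706 CPM to 31.9, 29.1 and 26.4 CPM (-7.02 ± 0.13). Of 22 pals genes tested of 39, a family with roles in the intracellular pathogen response, 18 fell and 1 rose. pals-22, a repressor of that response, fell from 398, 411 and 392 CPM to 7.59, 6.49 and 5.04 CPM (-5.94 ± 0.10), and pals-26 was the one that rose, from 3.40, 3.69 and 3.89 CPM to 49.4, 60.02 and 60.5 CPM (3.95 ± 0.15). Its mRNA was not called (0.18).

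Lists of somatic signalling genes also had more falls than rises, where 39.3% of all features fell and 13.5% rose. Of 39 neuropeptide genes tested of 148, 30 fell and 3 rose, and their summed small RNAs went from 1311 to 1341 CPM down to 38.84 to 42.41 CPM. nlp-81 fell from 373, 374 and 376 CPM to 2.39, 2.66 and 1.44 CPM (-7.42 ± 0.09), the FMRFamide-like peptide gene flp-16 from 247, 248 and 243 CPM to 1.39, 1.4 and 1.23 CPM (-7.51 ± 0.07) and the insulin-like peptide gene ins-5 from 155, 157 and 154 CPM to 0.806, 0.676 and 0.593 CPM (-7.77 ± 0.09). Their mRNAs fell too, by the log2 fold changes -2.51, -1.38 and -1.80. Of 14 synaptic genes 10 fell and 1 rose, and unc-10, which encodes the active zone protein RIM, fell from 289, 308 and 293 CPM to 2.45, 2.03 and 2.29 CPM (-7.02 ± 0.08). Of 172 nuclear receptor genes tested of 283, 107 fell and 8 rose, with a median of -1.55. nhr-15 fell from 861, 862 and 867 CPM to 13.04, 13.97 and 14.6 CPM (-5.97 ± 0.08), and nhr-23, a regulator of moulting and of spermatogenesis, was not called at 271, 264 and 259 CPM and 389, 386 and 372 CPM. Of 1600 chemoreceptor genes 302 were tested, of which 194 fell and 47 rose, yet their summed level went from 3019 to 3106 CPM up to 3649 to 3939 CPM. The most abundant of them, srt-17, had 1621, 1582 and 1632 CPM and 3125, 3173 and 2852 CPM, a difference under 2-fold (0.92 ± 0.10) that also drops below 0 under the microRNA scaling.

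Other lists had mixed counts, to be read against the 39.3% of all features that fell and the 13.5% that rose. Of 109 C-type lectin genes 74 fell and 15 rose, of 127 detoxification genes 94 fell and 4 rose, and of 64 col collagen genes 36 fell and 2 rose. col-71 fell from 592, 612 and 613 CPM to 4.31, 4.73 and 5.59 CPM (-6.97 ± 0.18). Of 71 histone genes 30 fell and 8 rose, a share of falls near that of all features. The linker histone gene his-24 fell from 2535, 2681 and 2598 CPM to 58.8, 59.4 and 56.5 CPM (-5.48 ± 0.08). The histone H3.3 gene his-72 rose from 80.6, 77.8 and 78.9 CPM to 209, 223 and 212 CPM (1.44 ± 0.05). The rise of his-72 falls to about 0 under the microRNA scaling, and was 0.854 and not called without mir-8203. All 6 vitellogenin genes, which encode yolk proteins, fell, but the triple mutant libraries varied. vit-6 was at 16.9, 16.7 and 17.3 CPM and 3.09, 0.631 and 11.69 CPM (-1.76 ± 0.72), with the second library lowest and the third close to the double deletion. The call for vit-6 was lost in 5 of the 6 fits that leave out 1 of these libraries, with edgeR adjusted p from 0.059 to 0.10. Of 78 ribosomal protein genes 6 fell and 4 rose, while the mRNA of 64 of the 78 fell. Of 19 heat shock genes 8 fell and 1 rose, again near the share of all features, and their summed small RNAs went up from 2177 to 2234 CPM to 3269 to 3454 CPM. Of 15 intestinal genes 9 fell and none rose, of 17 muscle genes 4 fell and 1 rose, and of 25 meiosis genes 1 fell and 2 rose. Of 6 anr antisense RNA entries tested of 57, 4 fell and 1 rose. Of 44 lincRNAs tested of 170, 30 fell and 3 rose, and linc-29 fell from 626, 598 and 575 CPM to 6.48, 6.62 and 7.03 CPM (-6.48 ± 0.10). Of 20 piRNA entries tested of 15363, 12 fell and none rose, all at low levels: the piRNA entry with the largest fall, 21ur-1541, had 11.8, 12.2 and 11.9 CPM and 0.0278, 0.0901 and 0.0847 CPM. Reads of other small RNAs at a piRNA locus are counted in the same entry.

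**Figure D2:**
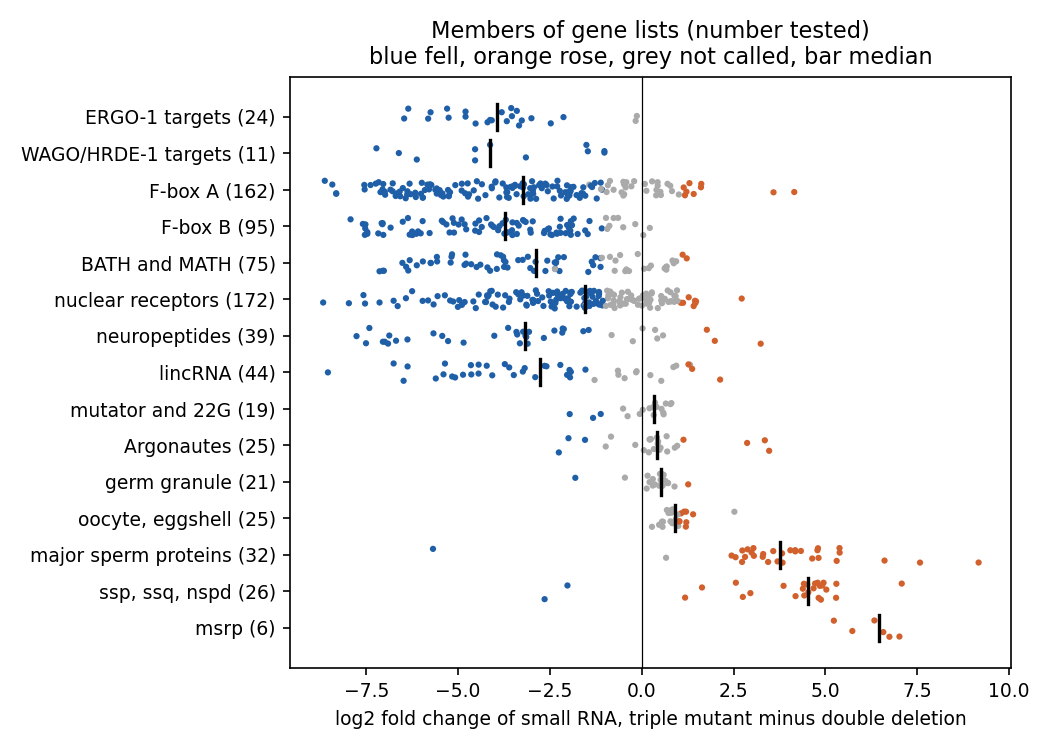
Log2 fold change of small RNA, triple mutant over double deletion (3 libraries each), for each tested member of 15 gene lists. Each point is a gene (blue fell, orange rose, grey not called), and the black bar is the list's median. The ERGO-1 and WAGO/HRDE-1 targets have medians of -3.95 and -4.13, the machinery lists lie near 0, and the major sperm protein, ssp, ssq and nspd, and msrp genes lie to the right with medians of 3.76, 4.52 and 6.46.

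Sperm genes had the highest shares of gains among the lists, where 13.5% of all features rose and 39.3% fell. Of 32 major sperm protein genes tested of 35, genes for the cytoskeletal and signalling protein of sperm, 30 rose and 1 fell, with a median of 3.76. Of 26 tested of 29 genes of the small ssp, ssq and nspd families, 24 rose and 2 fell, with a median of 4.52. All 6 tested msrp genes of 7 rose, with a median of 6.46. The lists were chosen with earlier results of these data known, so these counts are a description only. Scaled to microRNA counts, the 3 medians were 2.31, 3.07 and 5.02. In the double deletion the tested members of these lists were low, with median levels of 0.251, 0.559 and 0.292 CPM. Members this low could enter the test through the strains with mut-16(pk710) where they were high, which favours a rise. With no filter on low counts 31 of 35, 24 of 29 and 6 of 7 members rose, and 2, 3 and 0 fell. Of all 29497 features tested without the filter 2154 rose and 6574 fell. The msp genes are known for very similar sequences and can share reads, so single members are uncertain. The summed small RNAs of the major sperm protein genes went from 17.07 to 19.91 CPM up to 128.1 to 136.9 CPM, those of ssp, ssq and nspd from 24.35 to 25.4 CPM up to 365.4 to 387.3 CPM, and those of msrp from 2.997 to 3.358 CPM up to 229.9 to 260.9 CPM. Sperm small RNAs remained a small part of the libraries, at 0.04048% ± 0.00105 of counts for ssp, ssq and nspd in the triple mutant.

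Single sperm genes showed the same order of change. spch-1, a sperm chromatin protein gene, went from 2.95, 3.41 and 3.28 CPM to 102, 100 and 100 CPM (4.97 ± 0.17). ssp-16 rose from 2.49, 2.18 and 1.88 CPM to 48.6, 44.97 and 44.6 CPM (4.39 ± 0.14) and nspd-4 from 1.07, 1.51 and 1.52 CPM to 41.6, 39.6 and 36.1 CPM (4.85 ± 0.12). msrp-6 rose from 1.22, 0.728 and 0.668 CPM to 79.4, 85.4 and 91.2 CPM (6.58 ± 0.13) and msrp-3 from 0.102, 0.224 and 0.486 CPM to 32.7, 33.2 and 37.2 CPM (7.02 ± 0.24). In each, the highest library of the double deletion lay far below the lowest of the triple mutant. gsp-3, a sperm phosphatase gene, rose from 0.152, 0 and 0.486 CPM to 8.87, 7.21 and 7.63 CPM (5.24 ± 0.32), and smz-1, a gene of sperm meiosis, from 1.88, 1.74 and 1.94 CPM to 33.5, 30.8 and 31.6 CPM (4.11 ± 0.14). msp-10 had no count in the double deletion and 2.64, 3.60 and 3.94 CPM in the triple mutant, at least 59-fold higher. Of 11 other sperm genes 9 rose and 2 fell, where 13.5% of all features rose and 39.3% fell. The gain was not shared by all sperm genes. Among 35 spe and fer genes 21 rose and 4 fell. fer-1, a ferlin needed for vesicle fusion in sperm, fell from 155, 150 and 150 CPM to 11.04, 9.37 and 10.3 CPM (-3.88 ± 0.06), and the calcium channel gene spe-41 from 95.8, 88.0 and 94.1 CPM to 8.09, 6.17 and 8.73 CPM (-3.58 ± 0.08). msp-32 fell from 7.82, 7.22 and 8.44 CPM to 0.167, 0.135 and 0.127 CPM (-5.68 ± 0.36).

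The mRNA of the sperm genes was higher in the triple mutant too. Of the genes tested in both assays, the mRNA of 28 of 29 major sperm protein genes rose, that of 22 of 26 ssp, ssq and nspd genes rose and that of 2 fell, and all 6 msrp mRNAs rose, against 25.5% of all mRNAs. Summed major sperm protein mRNA was 104.1 to 112 CPM in the double deletion and 630.8 to 700.2 CPM in the triple mutant. RNA came from whole animals, so fewer cells of a type and less RNA per cell cannot be told apart, and whether the 2 strains held the same amount of sperm at harvest was not tested. Summed mRNA of muscle genes went the other way, from 12190 to 16750 CPM down to 3830 to 4025 CPM, and summed oocyte and eggshell mRNA was 11010 to 15270 CPM in the double deletion and 16420 to 18330 CPM in the triple mutant. The part of such differences in the small RNA gains was not tested.

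**Figure D3:**
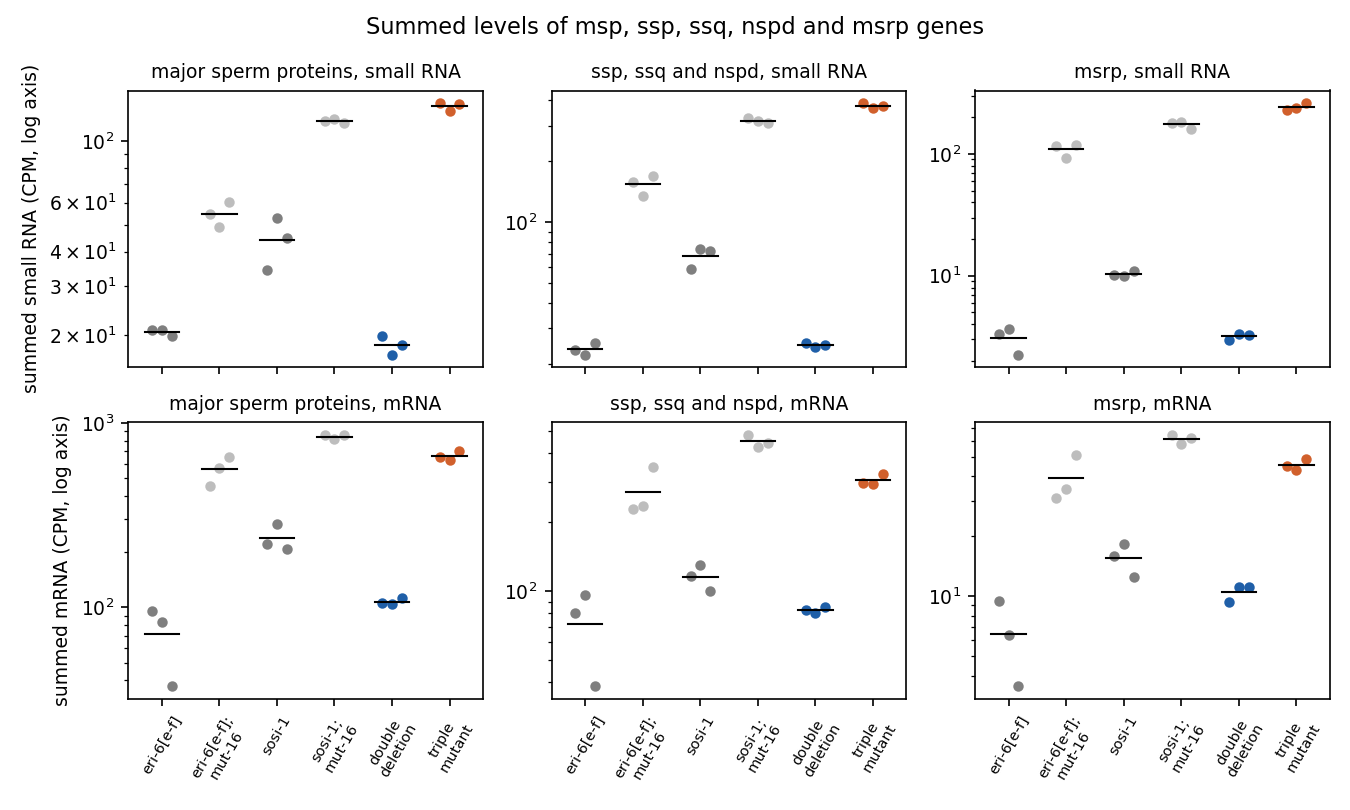
Summed small RNA (top) and mRNA (bottom) levels of major sperm protein genes, ssp, ssq and nspd genes, and msrp genes in CPM on log axes. Each point is 1 library of the 6 strains and each bar is the mean of 3. Summed major sperm protein small RNA stood at 17.07 to 19.91 CPM in the double deletion and 128.1 to 136.9 CPM in the triple mutant, and sosi-1 alone lay above the double deletion at 34.51 to 52.79 CPM.

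Where 13.5% of all features rose and 39.3% fell, 8 of 25 oocyte and eggshell genes rose, none fell and 17 were not called. Their median was 0.92. Under the microRNA scaling none rose and 1 fell, where 1024 of all 14941 features rose and 9706 fell. Without mir-8203 1 rose, where 1301 of 14941 did. The eggshell genes cpg-3, from 26.3, 28.6 and 26.2 CPM to 73.7, 74.0 and 65.8 CPM (1.398 ± 0.08), and cbd-1, from 401.9, 410 and 401 CPM to 837, 791 and 785 CPM (0.99 ± 0.06), lay on either side of the 2-fold limit, and the yolk receptor gene rme-2 was not called at 562, 553 and 550 CPM and 832, 825 and 807 CPM. The median of this list turned to -0.55 under the microRNA scaling, where cpg-3 was at -0.061 and not called. It was 0.335 without mir-8203, where cpg-3 was at 0.825 and not called. The mRNA of cpg-3 fell (-2.21) and that of cbd-1 and rme-2 rose (2.03 and 2.03). Noncoding RNA genes were the other class with many rises, 185 of 344 tested of 7704, against 68 that fell. The median level of those tested was 0.769 CPM in the double deletion and 1.65 CPM in the triple mutant. Entries this low could enter the test through the strains where they were high, so nothing is read from this share of rises. K01F9.7 rose from 1692, 2716 and 2266 CPM to 5689, 4834 and 5230 CPM (1.24 ± 0.15), which also turns negative under the microRNA scaling. The change of K01F9.7 was 0.689 and not called without mir-8203. The microRNA entry mir-8203 rose from 700, 763 and 606 CPM to 1915, 1820 and 2185 CPM (1.52 ± 0.10) and alone held most microRNA counts, and of 12 microRNA entries tested 3 rose and 1 fell.

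The effect of mut-16 in the double deletion was then tested against its effect in the single deletions. For 1233 features (8.25%) the log2 effect was higher in the double deletion than the mean of the 2 single deletions, and for 68 (0.455%) it was lower, 8.71% in either direction. By mean level in the single deletions, themselves part of this test, 11.2% of features under 1 CPM and 15.2% from 1 to 10 CPM were higher. Further up it was 3.03% from 10 to 100 CPM, 2.15% from 100 to 1000 CPM and 0 of 124 features at 1000 CPM or more. Low features could enter the test through the strains with mut-16(pk710) where they were high. Against eri-6[e-f] alone 888 were higher (5.94%) and 95 lower (0.636%), 6.58% in all, and against sosi-1 alone 1304 were higher (8.73%) and 73 lower (0.489%), 9.22% in all. The 3 tests share the double and triple libraries. Higher here means either a larger rise or a smaller fall. For 139 of the 1233 the level in the double deletion was under 0.5 times that in both single deletions, and for 172 the level in the triple mutant was over 2 times that in both single deletions with mut-16(pk710). Of the 68, 10 were over 2 times as high in the double deletion as in both single deletions, and 18 were under 0.5 times as high in the triple mutant. The scaling sets much of the count: with microRNA counts 740 features were higher, and without mir-8203 116 were higher, so that 79.3% and 75.3% of calls were higher in place of 94.8%.

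**Figure D4:**
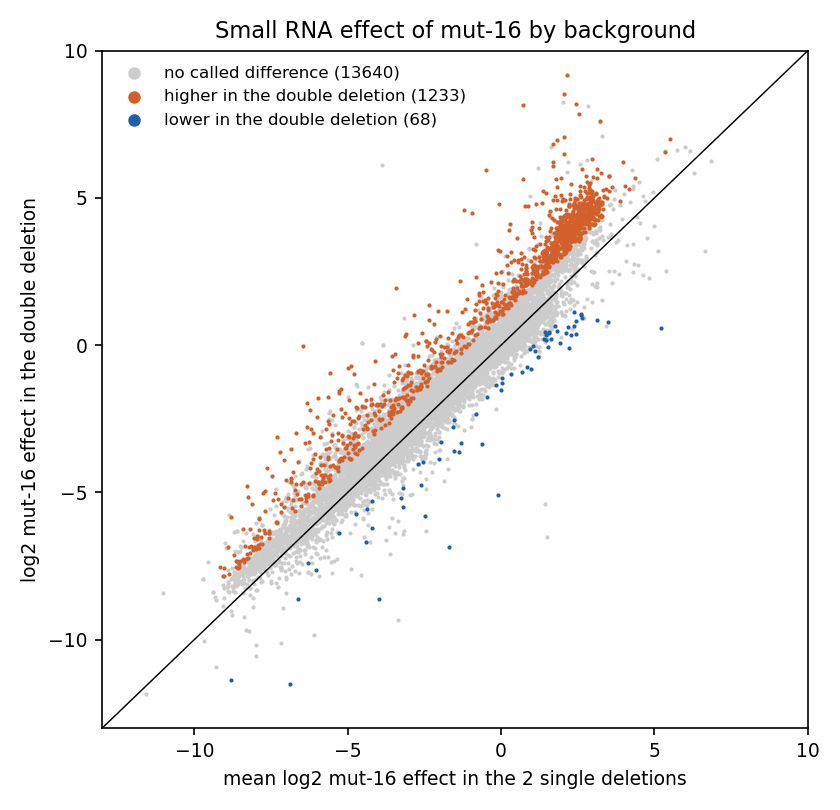
Log2 effect of mut-16 on small RNA in the double deletion (y axis) against the mean of its effects in the 2 single deletions (x axis) for 14941 features, with the line of equal effects. Orange points are the 1233 features called higher in the double deletion and blue points the 68 called lower.

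Among the sperm lists, the effect was higher than the mean of the single deletions for 13 of 32 major sperm protein genes, 15 of 26 ssp, ssq and nspd genes, 12 of 35 spe and fer genes and 4 of 6 msrp genes, where 8.25% of all features were higher, and it was lower for none. Scaled to microRNA counts without mir-8203, the counts were 7, 4, 0 and 1, where 116 of all 14941 features were higher. The median member of each of these lists was under 1 CPM in the double deletion. Such genes could enter the test through the strains with mut-16(pk710). With no filter on low counts 18 of 35, 16 of 29, 13 of 35 and 4 of 7 were higher, and 1, 2, 0 and 0 were lower. Of all 29497 features tested without the filter 1325 were higher and 94 lower. Against eri-6[e-f] alone 1 major sperm protein gene was lower. Their median effects in the double deletion, 3.76 for the major sperm proteins and 4.52 for ssp, ssq and nspd, stood beside 2.41 and 3.03 in eri-6[e-f] and 1.87 and 2.28 in sosi-1. For spch-1 the levels were 3.57, 4.11 and 3.16 CPM and 42.0, 26.1 and 45.3 CPM without and with mut-16(pk710) in eri-6[e-f], and 10.56, 13.03 and 12.5 CPM and 73.7, 80.9 and 66.1 CPM in sosi-1, and its effect in the double deletion was 1.997 ± 0.23 higher than their mean. Summed mRNA of ssp, ssq and nspd was higher in sosi-1 than in the double deletion as well, at 99.83 to 129.6 CPM against 80.35 to 85.39 CPM. That of spe and fer genes overlapped, at 140.8 to 172.8 CPM in sosi-1 and 134.2 to 204.6 CPM in the double deletion. These sums were not tested. pals-26 rose in all 3 backgrounds, and by 1.90 ± 0.19 more in the double deletion. ssp-11 rose from 0.203, 0 and 0 CPM to 11.3, 9.46 and 11.5 CPM in the double deletion, with 1 of the 3 double libraries above 0.

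Several noncoding RNAs rose far more in the double deletion. B0244.13 went from 7.67, 9.18 and 12.3 CPM to 487, 735 and 739 CPM, C28G1.8 from 13.3, 16.3 and 17.9 CPM to 376, 601 and 711 CPM and C10G8.9 from 4.42, 5.26 and 4.98 CPM to 174, 238 and 316 CPM. In eri-6[e-f] the means of these 3 were 44.8, 121 and 32 CPM without mut-16(pk710) and 88.7, 190 and 75.0 CPM with it. In sosi-1 they were 22.8, 43.3 and 22.5 CPM and 121, 209 and 120 CPM. The double deletion was thus the lowest of the 3 strains with mut-16 intact, and the triple mutant the highest of the 3 with mut-16(pk710), and the differences of effect were 4.403 ± 0.41, 3.70 ± 0.31 and 3.83 ± 0.34. The 5S ribosomal RNA entry rrn-4.3 rose from 12.9, 17.3 and 17.4 CPM to 116, 138 and 180 CPM (3.19 ± 0.22) and was not called in the single deletions, at means of 47.1 and 38.7 CPM in eri-6[e-f] and 38.3 and 47.2 CPM in sosi-1, a difference of 3.21 ± 0.27. A count per gene does not separate breakdown products of ribosomal RNA from other small RNAs.

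Other features fell in one or both single deletions and were not called in the double deletion. The pseudogene Y35H6.3 had 35.9, 37.2 and 36.4 CPM in the double deletion and 29, 27.6 and 27.4 CPM in the triple mutant, not called (-0.38 ± 0.08). Under the microRNA scaling Y35H6.3 was at -1.85, a called fall, but it was not called without mir-8203. With mut-16 its level in eri-6[e-f] went from 41.8, 38.03 and 45.9 CPM to 1.92, 1.54 and 0.880 CPM, and its level in sosi-1 from 35.9, 40.3 and 38.3 CPM to 8.72, 8.0 and 7.17 CPM, a difference of 3.17 ± 0.12 (edgeR adjusted p = 2.1e-14). Chosen after their values were seen, Y73B3A.21, M05D6.2 and F22B5.10 were also not called in the double deletion. Y73B3A.21 had 12.9, 15.4 and 15.2 CPM and 14.2, 15.9 and 16.3 CPM, against a loss from 14.9, 12.7 and 12.8 CPM to 1.34, 0.641 and 0.220 CPM in eri-6[e-f]. M05D6.2 had 52.1, 55.5 and 53.1 CPM and 64.2, 60.8 and 59.6 CPM, against a loss in sosi-1 from 48.5, 45.7 and 49.4 CPM to 2.23, 1.90 and 2.61 CPM, and no loss in eri-6[e-f], at 57.9, 57.2 and 57.8 CPM and 61.6, 70.3 and 60.6 CPM. F22B5.10 had the pattern of M05D6.2, with 18.1, 19.8 and 21.8 CPM and 0.632, 0.436 and 0.736 CPM in sosi-1 and 22.1, 19.8 and 23.6 CPM and 24.9, 23.8 and 22.8 CPM in the double deletion and the triple mutant. For these 3 the differences from the mean of the single deletions were 2.81, 2.31 and 2.59, and for M05D6.2 and F22B5.10 they rest on the sosi-1 pair, with 4.58 and 5.11 against sosi-1 and 0.04 and 0.06 against eri-6[e-f].

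For other genes the level in the double deletion was already low. irx-1, a homeobox gene, had 20.7, 18.9 and 20.7 CPM in the double deletion against 122, 122 and 116 CPM in eri-6[e-f] and 154, 155 and 158 CPM in sosi-1. With mut-16(pk710) all 3 backgrounds came down to about the same level, 0.695, 0.586 and 0.593 CPM in the triple mutant and means of 0.568 and 0.813 CPM in the others, so that the effect was -4.97 ± 0.13 in the double deletion and 2.74 ± 0.26 weaker than the mean of the single deletions. The riboflavin transporter gene rft-1 was similar, with 32.9, 31.6 and 30.9 CPM in the double deletion and means of 132 and 114 CPM in the single deletions. Y39B6A.41 had 16.7, 16.4 and 16.3 CPM against means of 81.4 and 104.5 CPM, and T05G5.4 6.81, 8.0 and 6.62 CPM against 180 and 49.4 CPM. irx-1, rft-1 and Y39B6A.41 were chosen after their values were seen. fbxc-38 and fbxa-46, both typed as pseudogenes, fell in the double deletion to 3.39, 2.07 and 3.13 CPM and 1.06, 1.04 and 1.31 CPM, above the means of 0.270 and 0.165 CPM left with mut-16(pk710) in eri-6[e-f]. Their differences of effect were 3.18 ± 0.29 and 3.60 ± 0.39.

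The 68 features with a lower effect in the double deletion included F31E9.6, whose small RNAs were raised in the double deletion. It stood at 119, 111 and 107 CPM in the double deletion and 3.64, 2.88 and 3.09 CPM in the triple mutant (-5.11 ± 0.11), against 0.933, 1.07 and 1.08 CPM in eri-6[e-f] and 0.632, 0.857 and 1.04 CPM in sosi-1, and the difference of effect was -5.01 ± 0.36 (edgeR adjusted p = 9.8e-10). nlp-40, a neuropeptide gene of the intestine, had 50.3, 45.5 and 46.1 CPM in the double deletion, with means of 9.07 and 12.2 CPM in the single deletions, and all 3 backgrounds came down to about 0.5 CPM with mut-16(pk710). The talin gene tln-1 had 378, 386 and 382 CPM in the double deletion and 14.3, 13.02 and 11.9 CPM in the triple mutant, with means of 147 and 75.0 CPM in the single deletions. Their differences of effect were -2.29 ± 0.29 and -1.67 ± 0.08. fbxa-11 fell to a lower level in the triple mutant, 16.1, 12.6 and 12.7 CPM, than the means of 38.4 and 49.9 CPM in the single deletions with mut-16(pk710), a difference of -2.01 ± 0.09. wdfy-3 stood at 25.6, 24.6 and 25.8 CPM and 24.5, 23.9 and 24.8 CPM, overlapping, where the single deletions rose with mut-16(pk710) to means of 85.4 and 77.3 CPM, a difference of -1.59 ± 0.08.

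**Figure D5:**
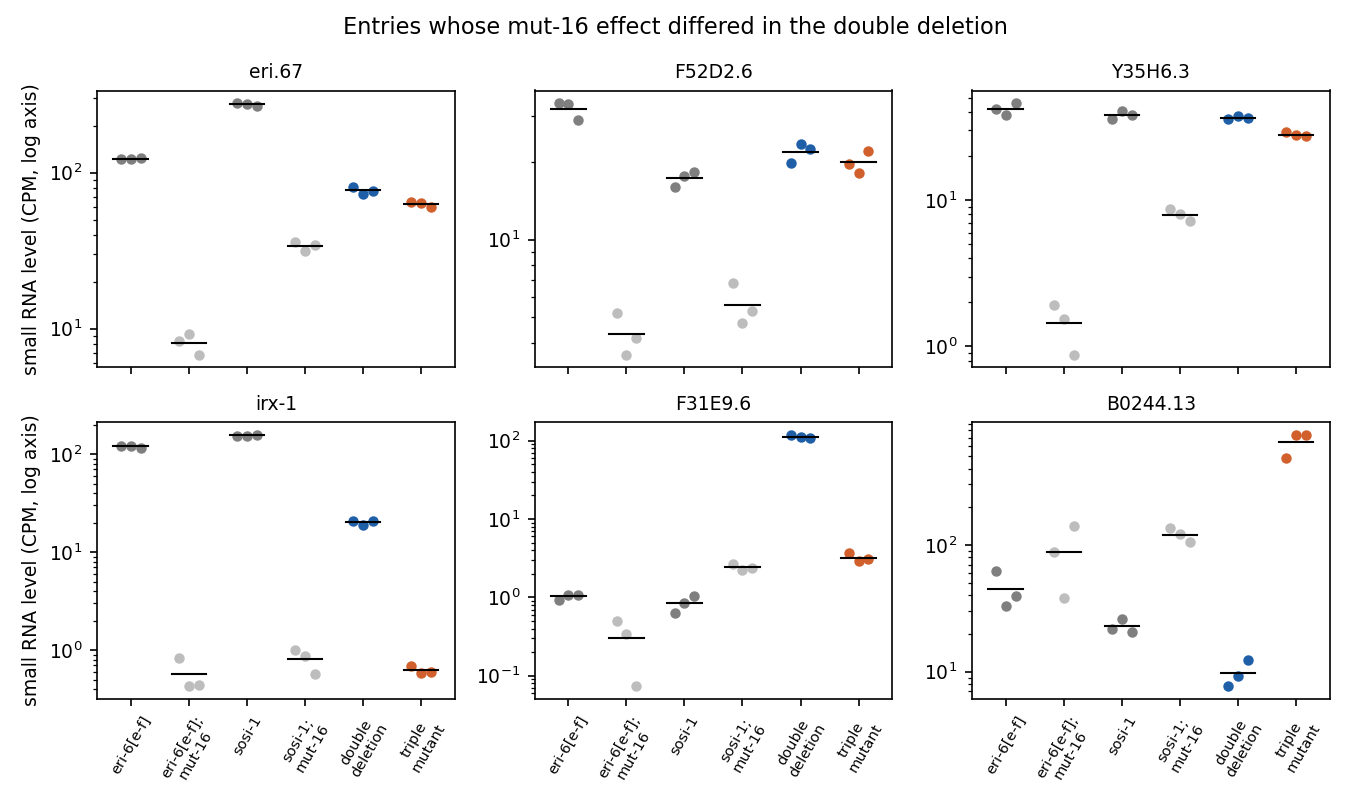
Small RNA level (CPM, log axis) of 6 entries in each library of the 6 strains, with bars at the mean of 3. eri.67, F52D2.6 and Y35H6.3 differed by less than 2-fold between the double deletion and the triple mutant at this scaling (all 3 are called falls when scaled to microRNAs, but not without mir-8203) and fell in the single deletions with mut-16(pk710), irx-1 and F31E9.6 differed already without mut-16(pk710), and B0244.13 was highest in the triple mutant.

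Finally, mRNA libraries of the same 2 strains gave the background for these small RNA changes. The mRNA of 3695 of 14513 genes rose and that of 3817 fell. The TMM factors of the 2 strains lay apart, at 0.6941 to 0.7107 in the double deletion and 1.1167 to 1.1742 in the triple mutant. These mRNA counts depend on the libraries and on the scale: without any 1 of the 3 triple mutant mRNA libraries 4506 to 4562 rose and 2703 to 2771 fell, and with library size alone 78.7% of calls were rises in place of 49.2%. Of 12141 genes tested in both assays, 27.5% had a rise of mRNA and 25.5% a fall. Where small RNAs fell (4250 genes), 20.9% had a rise of mRNA and 26.2% a fall, with a median mRNA change of -0.18. Where small RNAs rose (1445 genes), 59.8% had a rise of mRNA and 167 genes a fall, with a median of 1.5. Genes that lost small RNAs had a smaller share of mRNA rises than all genes tested in both assays. Among the recalled WAGO and HRDE-1 targets it was 10 of 11, counting both names of each pair with equal small RNA levels. bath-45 mRNA went from 3.34, 3.59 and 6.41 CPM to 25.5, 27.6 and 26.9 CPM (2.62 ± 0.30), and for bath-20, with nearly as many small RNAs lost, the difference of mRNA was smaller (0.71 ± 0.26) and not called, though it passed 2-fold, at 1.007 and 1.036 for bath-20, without 1 of 2 triple mutant libraries.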

How the data were processed

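Small RNAs of 18 to 30 nucleotides were selected on a gel and sequenced as single-end reads of 75 bases, and mRNA libraries were made from the same strains, per the labels' protocols. Trimming, alignment and counting tools named in the submitters' processing notes are cutadapt, Salmon and HISAT2, without versions. The authors deposited a table of estimated counts per gene name for each library, not normalised. No source used here names the genome build or the strand counted. Estimated counts of names that occur more than once, which hold 3.72 to 4.54% of counts in the 6 libraries, were summed, giving 46003 names of 47074 entries, and rounded. Gene types came from a RefSeq table of assembly WBcel235, which matched 45682 names and left 321.

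The 18 small RNA libraries of 6 strains were fitted together with edgeR 4.0.16 in R 4.3.3 (filterByExpr by strain, TMM, quasi-likelihood test), leaving 14941 features with a common biological coefficient of variation of 0.0637. TMM factors were 0.94 to 0.95 in the double deletion and 1.05 to 1.11 in the triple mutant. A call needed an adjusted p below 0.05 and a 2-fold change. Differences between backgrounds are contrasts of the same fit. The 18 mRNA libraries were fitted in the same way (14513 genes, coefficient 0.213). DESeq2 1.42.0 was an alternative. The steps were also run on simulated counts in which few features changed and all had the same spread. That run left out the lowest counts and cannot test the choice of scaling, so nothing is concluded from it. Folds against a group with no counts use a floor of 3 counts over the group, and intervals are exact conditional ones that cover counting error only.

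The members and gene lists were chosen with earlier results of these data known. The lists come from gene name patterns, gene types and recalled pathway and target genes. Named genes were picked by rule: genes of the locus, mutator, 26G-RNA and Argonaute lists; the 12 largest changes in each direction among called features of at least 10 CPM; the 3 most abundant members of each list and its largest rise and fall; the 8 most abundant features; and the 8 largest differences from the single deletions in each direction. The members named from the ERGO-1, WAGO and HRDE-1 and msrp lists, spch-1, irx-1, rft-1, Y39B6A.41, Y73B3A.21, M05D6.2 and F22B5.10 were added after their values were seen. No sequences or coordinates are given, and the chromosomes of the changed features were not described.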

Additional observations from a re-analysis of the deposited data

Results flagged for a closer look

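The effect of mut-16(pk710) on small RNAs differed between the backgrounds by the test of the difference itself for 1301 of 14941 features: it was higher in the double deletion than the mean of the single deletions for 1233 and lower for 68. Their number depends on the scaling, as given under the processing alternatives. Of the 1233, 352 had a mean level under 1 CPM and 686 one of 1 to 10 CPM in the single deletions.

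Among the genes described above, the effect in the double deletion was higher by 3.16 on the log2 scale for eri.67, 3.17 for Y35H6.3, 2.81 for Y73B3A.21, 2.59 for F22B5.10, 2.31 for M05D6.2 and 2.15 for F52D2.6, which were not called in the double deletion. Of these, eri.67, Y35H6.3 and F52D2.6 are called falls there when scaled to microRNA counts, but not without mir-8203. It was higher by 1.81 for E01G4.7, 1.68 for E01G4.5, 3.60 for fbxa-46, 3.18 for fbxc-38 and 2.74 for irx-1, which fell less than in the single deletions. It was higher by 4.403 for B0244.13, 3.83 for C10G8.9, 3.70 for C28G1.8, 3.21 for rrn-4.3, 1.997 for spch-1, 1.90 for pals-26, 1.71 for alg-3 and 1.21 for alg-4, which rose more. It was lower by the log2 differences -5.01 for F31E9.6, -2.29 for nlp-40, -2.01 for fbxa-11, -1.67 for tln-1 and -1.59 for wdfy-3.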

How the results depend on the processing

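The 7890 calls of the main comparison numbered 7835 with DESeq2 size factors, 8437 with library size alone, 10730 scaled to microRNA counts and 8088 scaled without mir-8203, 8728 with no filter, 8106 with DESeq2's test, 7859 with 24 libraries of 8 strains in the fit, 6853 with these 6 libraries alone, 7436 with repeated names dropped and 5659 at 4-fold. They numbered 2845 among features of at least 10 CPM in 3 libraries and 12741 with no fold limit. The 1301 differences from the mean of the single deletions numbered 154 when scaled to microRNA counts without mir-8203, 533 at 10 CPM, 3346 with no fold limit and 348 at 4-fold. The 983 differences from eri-6[e-f] numbered 539 and 119 under the microRNA scalings with and without mir-8203, 517 at 10 CPM, 2912 with no fold limit and 308 at 4-fold. The 1377 differences from sosi-1 numbered 137 without mir-8203, 555 at 10 CPM, 2472 with no fold limit and 485 at 4-fold. Leaving out 1 library gave 7820 to 7999, 1105 to 1492, 772 to 1124 and 1162 to 1587 calls for these 4 comparisons and 7209 to 7559 for mRNA.

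The microRNA scaling moved the median of all features from -0.198 to -1.658, and without mir-8203 to -0.771. Library size alone moved it to -0.008 and DESeq2 size factors to -0.261. Under the microRNA scaling these log2 fold changes turned negative: K01F9.7 -0.22, cgh-1 -0.20, cpg-3 -0.061, his-72 -0.026, hrde-1 -1.03, klp-7 -1.27, prg-1 -1.28, snrp-200 -1.02 and wago-1 -0.33. Without mir-8203 some stayed positive but were not called: K01F9.7 0.689, cgh-1 0.684, cpg-3 0.825, his-72 0.854 and wago-1 0.562. Of 2312 alternatives over the 127 single gene values tested, 2231 kept direction and call, 32 lost the call, 20 gained it, 9 turned and 20 moved without a call. The cause was not tested.

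Without the 5 most abundant features the share of counts moved by 9.18 percentage points for protein-coding genes, -9.34 for pseudogenes and 0.257 for noncoding RNAs. Leaving out 1 library gave 8.70 to 8.80, -9.25 to -9.22 and 0.562 to 0.634 points for these, and -0.237 to -0.234 for long noncoding RNAs and 0.137 to 0.16 for microRNAs. The replicate numbers did not pair the samples, since deviations of same-numbered libraries correlated at -0.021, -0.003 and 0.033. With the replicate block there were 7871 calls, 1242, 932 and 1300 differences from the mean of the single deletions, eri-6[e-f] and sosi-1, and 7527 for mRNA. Where a group held 0 to 3 counts, only a lower bound or a ratio with its counting interval is given.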
